A study of Rattus norvegicus with 15 samples.

Results

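The aorta of the spontaneously hypertensive rat (SHR) was compared with that of the Wistar Kyoto rat (WKY), its normotensive control strain, in the 10 untreated libraries of a series of 15. The members were taken by their labels: 5 WKY and 5 SHR libraries from the abdominal aorta, all from rats that drank double distilled water for 10 weeks. A further group of 5 SHR libraries, from rats given neferine, an alkaloid of the lotus, at 10 mg/kg per day for the same time (SHR+Nef), was used here only for a few side values. Total RNA was depleted of ribosomal RNA and sequenced. The labels give the strain as the genotype and state neither age nor sex. Each library was taken as a separate rat, though no label says so in as many words. Were 2 libraries from 1 rat, a p-value would describe technical spread in part.

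SHR was bred from Wistar Kyoto stock by selection for high blood pressure, so the 2 strains differ in their genomes as well as in pressure. The abdominal aorta is an elastic artery whose wall is mostly smooth muscle, lined by endothelium and wrapped in a sheath of fibroblasts, nerves and fat. A gene can give several transcripts, called isoforms, that differ in their exons, and a strain can differ in the amount of a gene's RNA or in which isoform it makes. In such whole-tissue RNA, fewer cells of a type and less RNA per cell cannot be told apart.

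The deposited files hold 1 abundance value for each transcript, in a unit they do not name. They cover 13891 transcripts with an Ensembl rat ID (ENSRNOT) and 27980 isoforms of a transcript assembly, whose ID (MERGE) holds a locus number and an isoform number. Gene names do not stand beside the IDs, and the reference gene table matched 0 of them. The labelled tissue could therefore not be checked against smooth muscle or endothelial markers, no pathway was described, and IDs are printed for only 2 transcripts in each direction. Reads shared by isoforms of 1 locus, or by an assembled isoform and an Ensembl transcript of the same gene, can be divided between them in ways the files do not record, so a single isoform's value is less certain than the sum over its locus.

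Of the 41871 transcripts listed, 24615 stood at 1 or more in at least 5 of the 10 libraries and were tested, and 17256 were not. All 10 libraries were at 1 or more for 11334 transcripts. Just inside the limit were 2619 transcripts at 1 or more in exactly 5 libraries, with a median abundance of 1.21, and just outside it 2992 with exactly 4 libraries and a median abundance of 1.00. Tested transcripts were sorted by their mean over the 10 libraries into 14484 with a mean of 1 to 5, 6249 with a mean of 5 to 20 and 3149 with a mean over 20, and 733 that passed the limit had a mean under 1.

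One library stood apart. SHR replicate 4 had 9902 of the listed transcripts at 0, against 3423 to 4637 in the other 9 libraries. Its values summed to 746274, against 504981 to 634078. Its rank correlation with the libraries of its group, over tested transcripts, had a median of 0.624, against 0.734 to 0.748 for the others. Such coefficients describe the libraries, since transcripts are not independent of each other. On the first principal component, with 26.6% of the variance, SHR replicate 4 lay at 164 and the others between -43.3 and 3.36. The second component, with 13.0%, placed the 5 WKY libraries between -43.2 and -18.1, the other 4 SHR libraries between 40.6 and 57.9, and SHR replicate 4 at -14.2. The sums are not read depths. The smallest values, whose step reflects depth if the scale is FPKM, were 1.26 times those of WKY replicate 1 in SHR replicate 4 and up to 1.19 times in the others. Leaving out this library was part of the comparison from the start, and the main counts below are given with and without it.

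Zeros in SHR replicate 4 were concentrated among scarce transcripts. In the tier with a mean of 1 to 5 it had 17.9% of transcripts at 0, against 3.05% to 4.40% in the other 9 libraries. At a mean of 5 to 20 the share was 7.12% against 1.07% to 1.82%, and over 20 it was 1.62% against 0.508% to 0.921%. Among 2098 transcripts at 20 or more in all of the other 9 libraries, 7 were listed at 0 in SHR replicate 4, and in the other libraries the matching count was 0 to 3 of 1905 to 1930. An exact 0 can be a failed estimate, so these transcripts are called listed at 0, not absent.

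The spread within a strain followed the same library. The median SD of log2(value + 1) over tested transcripts was 0.366 for WKY, 0.536 for SHR and 0.343 when replicate 4 was left out of SHR. Leaving out any other SHR library gave 0.531 to 0.556. At a mean of 1 to 5 WKY had a median SD of 0.403, SHR 0.567 and SHR without replicate 4 0.384. Over 20 it was 0.276, 0.434 and 0.255 in the same order. With WKY also reduced to 4 libraries, its median SD over all tested transcripts was 0.332 to 0.361, a range that holds the 0.343 of SHR without replicate 4.

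**Figure D1:**
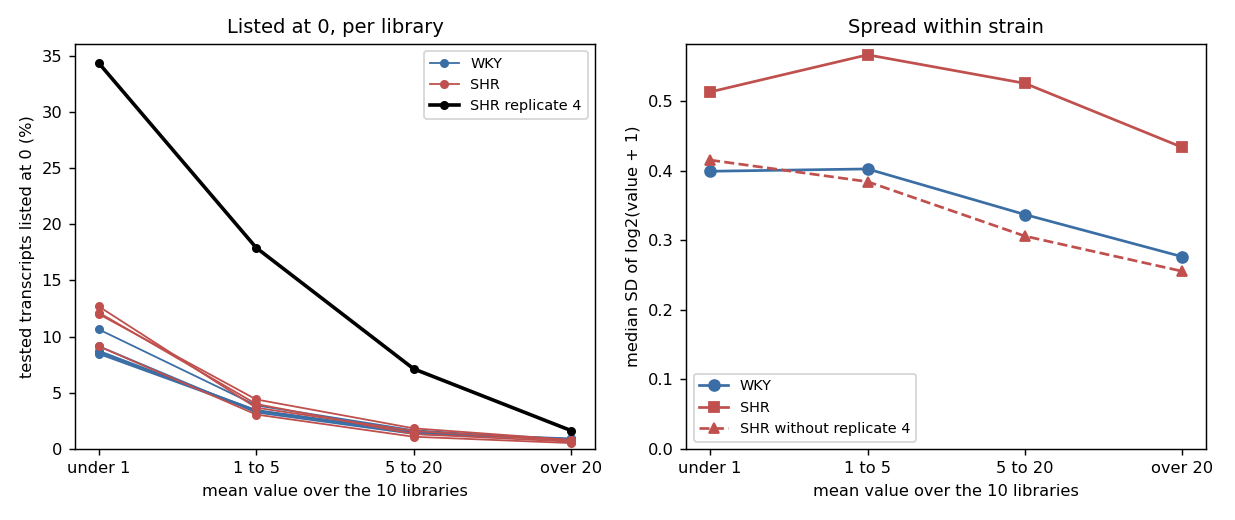
Left, the percentage of tested transcripts listed at 0 in each of the 10 libraries, by tier of the mean value. SHR replicate 4 (black) lies at 17.9% in the tier of 1 to 5, above all other libraries. Right, the median SD of log2(value + 1) within WKY, within SHR and within SHR without replicate 4, by tier. The dashed line runs close to that of WKY.

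Between the strains, 298 of 24615 transcripts differed (1.21% of those tested; limma, adjusted p under 0.05). In SHR 121 of them were higher (0.492%) and 177 lower (0.719%). The median size of a called difference was 1.83 on the log2(value + 1) scale, on which all differences below are given, and the smallest was 0.757. All 5 SHR values lay on 1 side of all 5 WKY values for 294 of the 298, and for 727 (2.95%) of all tested transcripts. Leaving out SHR replicate 4, on the same 24615 transcripts, gave 335 calls (1.36%), 142 higher (0.577%) and 193 lower (0.784%), and 1079 transcripts (4.38%) whose values did not overlap. Of the 335, 271 were also called with all 10 libraries, each in the same direction. The 64 added calls came with a median standard error of 0.257 over all tested transcripts, against 0.308 with the library included.

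Most of the called transcripts were barely present in the strain with less of them. In 39 of the 298 the lower strain was listed at 0 in all 5 libraries, and in 175 (58.7%) its mean was under 0.5. Of these 175, 64 were higher and 111 lower in SHR. A mean of at least 1 in the lower strain was found for 88 calls (29.5%), 42 higher and 46 lower, all with values that did not overlap. The ratio of the strain means among these 88 ran from 1.96 to 94.5 with a median of 3.89. In 28 of the 88 the lower strain's mean was at least 5, 14 in each direction, with a median ratio of 2.64.

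The limit on low values itself admits transcripts that had to differ. Of the tested transcripts, 206 reached 1 in the 5 libraries of a single strain and in none of the other, 79 through SHR and 127 through WKY, so that their groups cannot overlap. These made up 164 of the 298 calls, 60 higher and 104 lower, a count that the limit fixes in part and that supports nothing by itself. Among the 24409 transcripts at 1 or more in a library of each strain, 134 were called, 61 higher and 73 lower (0.549%). Fitted alone, with p-values adjusted over themselves, these 24409 gave 82 calls, 37 higher and 45 lower (limma; 0.549% is the share in the full fit).

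Near the limit, SHR replicate 4 was below 1 more often than the other SHR libraries. Just outside the limit were 168 transcripts at 1 or more in 4 SHR libraries and no WKY library. As many, 168, were at 1 or more in 4 WKY libraries and no SHR library. The SHR library below 1 was replicate 4 for 54 of the former and each of the other replicates for 25 to 34. For the latter the missing library was WKY replicate 1 for 47, replicate 5 for 41, and replicates 2, 3 and 4 for 29, 19 and 32. When the limit of 5 libraries was set again on the 9 libraries without SHR replicate 4, transcripts seen only in SHR could no longer reach it, and the fit gave 251 calls, 69 higher and 182 lower. How much of the excess of lower calls comes from this library was not tested.

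**Figure D2:**
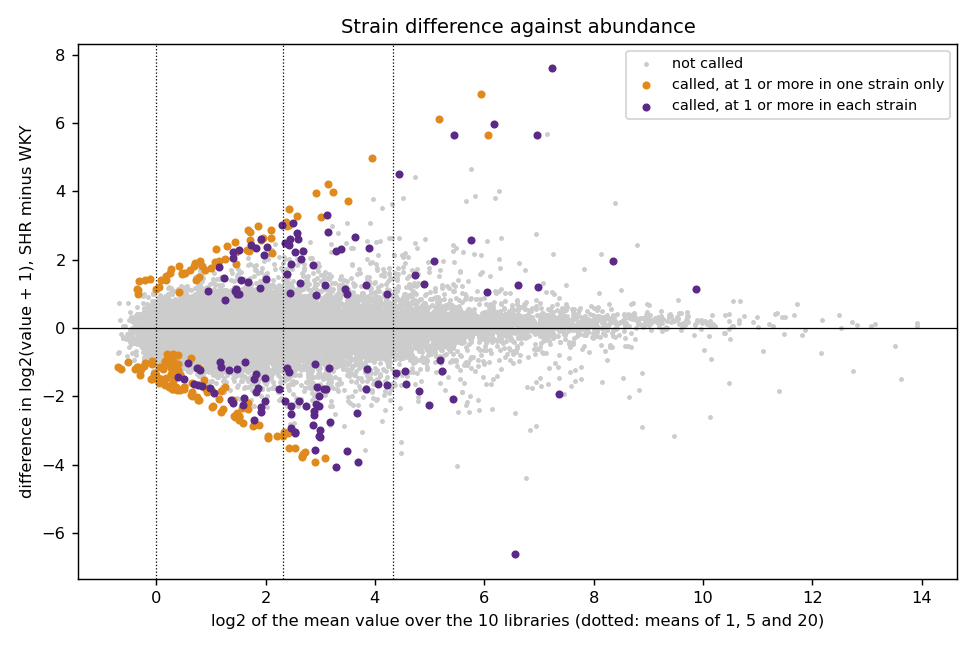
Difference in log2(value + 1), SHR minus WKY, against the log2 of the mean value over the 10 libraries, for the 24615 tested transcripts. Orange marks the 164 calls at 1 or more in a single strain, which lie along the outer edges where 1 strain is near 0, and purple the 134 calls at 1 or more in a library of each strain.

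By abundance, the tier with a mean of 1 to 5 held 164 calls, 60 higher and 104 lower (1.13% of its transcripts). The tier of 5 to 20 held 81, 37 higher and 44 lower (1.30%), and the tier over 20 held 27, 17 higher and 10 lower (0.857%). Among the 733 transcripts with a mean under 1 there were 26 calls, 7 higher and 19 lower (3.55%), and all 26 were at 1 or more in a single strain. In the tier of 1 to 5, 114 of the 164 calls were of this kind, against 21 of 81 at 5 to 20 and 3 of 27 over 20. The share of calls that were higher in SHR was 36.6%, 45.7% and 63.0% in the 3 tiers above 1, with the calls seen in a single strain included. Among transcripts at 1 or more in a library of each strain there were 50, 60 and 24 calls in these tiers (0.349%, 0.963% and 0.763%), of which 42.0%, 43.3% and 58.3% were higher, and none of 700 with a mean under 1 was called (limma; 45 had an unadjusted p under 0.05 when such transcripts were fitted alone). Fitted alone they gave 11 higher and 12 lower calls at 1 to 5, 17 and 25 at 5 to 20, and 9 and 8 over 20. Quantile normalization of all tested transcripts gave 70 and 88, 36 and 48, and 17 and 12 in the same tiers. The order of the tiers of 1 to 5 and 5 to 20 thus depended on the setting. The tier over 20 had the largest share higher in SHR in each of these fits, on few calls. With SHR replicate 4 left out these tiers held 185, 94 and 29 calls, of which 40.5%, 47.9% and 55.2% were higher. No test between tiers was made.

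Small shifts of whole tiers lay beneath these calls. The median difference between the strains over all transcripts of a tier was -0.069 at 1 to 5, -0.027 at 5 to 20 and 0.083 over 20. Without SHR replicate 4 the medians were 0.015, 0.038 and 0.041. Under median scaling they were -0.018, 0.024 and 0.135, and under quantile normalization 0.024, -0.028 and -0.018, so the sign of a tier's median depended on the scaling. The called differences of the same tiers had a median size of 1.77, 2.55 and 1.95.

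By class of ID, 213 of 14226 assembled isoforms (1.50%) and 85 of 10389 Ensembl transcripts (0.818%) were called. The assembled isoforms split into 81 higher and 132 lower, and the Ensembl transcripts into 40 higher and 45 lower. Calls at 1 or more in a single strain, which the limit fixes in part, numbered 137 of the 213 and 27 of the 85. Setting such transcripts aside left 76 of 14058 assembled isoforms (0.541%) and 58 of 10351 Ensembl transcripts (0.560%), nearly equal shares, and 93 (0.662%) and 78 (0.754%) in the fit without SHR replicate 4. Once SHR replicate 4 was left out there were 230 assembled and 105 Ensembl calls, and without WKY replicate 3 there were 53 Ensembl calls, a drop of over 1.5 times. The median standard error was 0.333 for assembled isoforms and 0.275 for Ensembl transcripts, so an equal difference was measured less precisely in the former.

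Within tiers, transcripts at 1 or more in a single strain were first set aside. The class with the larger share then changed with SHR replicate 4 at 1 to 5 and at 5 to 20. Over 20 the assembled isoforms had the larger share with and without that library. The assembled isoforms then had 37 of 9763 called (0.379%) and the Ensembl transcripts 13 of 4572 (0.284%) at a mean of 1 to 5. At 5 to 20 these were 27 of 2927 (0.922%) and 33 of 3301 (1.00%), over 20 they were 12 of 837 (1.43%) and 12 of 2309 (0.52%), and under 1 neither class had a call. In the fit without SHR replicate 4 the shares were 0.410% and 0.634% at 1 to 5, 1.33% and 1.06% at 5 to 20, and 1.55% and 0.606% over 20. With the transcripts of a single strain included, the share among assembled isoforms at 1 to 5 was 131 of 9883 (1.33%) against 33 of 4601 (0.717%). At 5 to 20 it was 44 of 2944 (1.49%) against 37 of 3305 (1.12%), and over 20 it was 15 of 840 (1.79%) against 12 of 2309 (0.52%). Under 1 it was 23 of 559 (4.11%) against 3 of 174 (1.72%). In the fit without SHR replicate 4 the tier of 1 to 5 held 136 (1.38%) and 49 (1.06%), that of 5 to 20 held 55 (1.87%) and 39 (1.18%), and that over 20 held 15 (1.79%) and 14 (0.606%). Isoforms of a locus are not independent and no test between the classes was made.

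**Figure D3:**
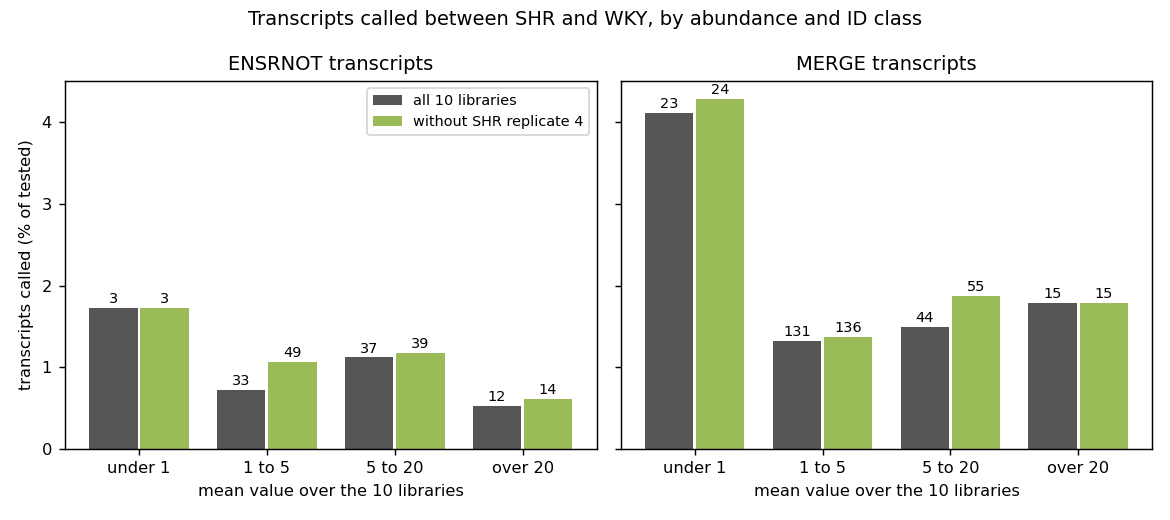
Percentage of tested transcripts called between SHR and WKY, by tier of the mean value, for Ensembl (left) and assembled (right) transcripts. Grey bars use all 10 libraries and green bars leave out SHR replicate 4, and the number above each bar is the count of calls, such as 15 of 840 assembled isoforms with a mean over 20. The bars include transcripts at 1 or more in a single strain.

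Among transcripts with a mean over 20, the 4 named ones are the calls with the largest difference in each class and direction. Their lower strain had to have a mean of at least 1, and their strains could not overlap. The lack of overlap in the leading transcripts of all tiers is thus part of their choice. Calls with a lower mean under 1 are not ranked here, and some of them differed by more, as the plot of difference against mean shows. MERGE.8764.1 was listed at 0 in WKY replicate 1 and stood at 2.52, 2.63, 1.62 and 0.825 in WKY replicates 2 to 5. In SHR replicates 1 to 5 it stood at 165, 160, 119, 154 and 119. The strains were far apart, and the highest WKY value was a small fraction of the lowest SHR value. WKY had a mean of 1.52 ± 1.12 and SHR one of 143.5 ± 22.9 (SD, 5 libraries each), a ratio of 94.5. The log2 difference was 5.97 ± 0.34 (standard error; limma, adjusted p = 8.9e-06), with an adjusted p of 6.5e-05 without SHR replicate 4. The SHR+Nef libraries stood at 127 to 166.

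ENSRNOT00000036217 had the largest rise of the Ensembl transcripts so ranked. In WKY it stood at 0.0122, 27.5, 0.0395, 0.0683 and 38.8 in replicates 1 to 5, so 3 libraries were near 0 and 2 were not. In SHR it stood at 393, 179.9, 349, 149 and 107, all above the WKY values. The log2 difference was 5.65 ± 1.13 (standard error; limma, adjusted p = 0.043). The call ended without SHR replicate 4 (adjusted p = 0.088) and without any 1 of the other SHR libraries or WKY replicates 1, 3 and 4, with adjusted p from 0.074 to 0.12. The SHR+Nef libraries were also uneven, at 3.07, 3.47, 355, 359 and 50.7. The values of this transcript thus varied widely among the WKY libraries and among the treated SHR libraries, as well as between the strains. Whether this reflects the rats or the division of reads between isoforms was not tested.

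ENSRNOT00000038677 had the largest fall of the Ensembl transcripts so ranked. It stood at 245, 304, 243, 229 and 286 in WKY and at 49.1, 76.8, 63.6, 104 and 53.5 in SHR, in replicates 1 to 5. All SHR values lay below all WKY values, and SHR replicate 4 was the highest of its group. The mean fell from 261 ± 31.8 to 69.3 ± 21.9 (SD, 5 libraries per strain), a ratio of 3.77, and the log2 difference was -1.94 ± 0.20 (standard error; limma, adjusted p = 5.9e-04). Without SHR replicate 4 the difference was -2.10. The SHR+Nef libraries, at 61.0 to 88.6, lay in the range of SHR.

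MERGE.18659.1 fell most among the assembled isoforms so ranked. It stood at 56.6, 75.0, 46.8, 62.5 and 25.7 in WKY and at 10.7, 10.6, 11.4, 9.32 and 7.31 in SHR, in replicates 1 to 5. The SHR values were tightly grouped, while WKY replicate 5 was the lowest of its strain. The mean fell from 53.3 ± 18.5 to 9.87 ± 1.61 (SD, 5 libraries per strain), a ratio of 5.40, and the log2 difference was -2.25 ± 0.26 (standard error; limma, adjusted p = 0.0014). The SHR+Nef libraries stood at 5.88 to 12.6.

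The same ranking in the tier of 5 to 20 gave 4 transcripts, and largest below means largest in it. The Ensembl transcript with the largest rise stood at 1.63, 1.04, 2.61, 2.32 and 3.01 in WKY and at 34.3, 27.6, 25.8, 3.18 and 23.5 in SHR. SHR replicate 4 lay next to the highest WKY value and the other SHR libraries were far above. With all libraries the difference was 2.68 ± 0.53 (standard error; limma, adjusted p = 0.041), and leaving out SHR replicate 4 gave 3.23 ± 0.22 (adjusted p = 9.5e-05). Leaving out any 1 of the other 9 libraries ended the call, with adjusted p from 0.082 to 0.11.

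The assembled isoform with the largest rise at 5 to 20 stood at 0.387, 6.78, 2.30, 0.403 and 0.265 in WKY and at 13.5, 14.96, 12.7, 21.7 and 14.8 in SHR. WKY replicate 2 was the highest of its group and still below all SHR values. This was a difference of 2.83 ± 0.48 (standard error; limma, adjusted p = 0.016). Its Ensembl counterpart among the falls stood at 17.9, 27.4, 26.2, 28.3 and 24.5 in WKY, was listed at 0 in SHR replicates 1, 3 and 4, and stood at 2.31 and 3.01 in SHR replicates 2 and 5. Here the difference was -3.93 ± 0.44 (standard error; limma, adjusted p = 9.5e-04). The assembled isoform with the largest fall stood at 8.67, 13.9, 19.4, 16.4 and 16 in WKY, was listed at 0 in SHR replicates 1, 2 and 4, and stood at 3.6 and 2.02 in SHR replicates 3 and 5 (limma, difference -3.19, standard error 0.47, adjusted p = 0.0064). For both falls a lower mean just above 1 rests on 2 SHR libraries with the other 3 listed at 0.

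At a mean of 1 to 5 the leading differences ran from 1.42 to 1.77 in size. The Ensembl transcript with the largest rise stood at 0.466, 1.19, 1.38, 1.18 and 1.36 in WKY and at 5.25, 4.14, 3.33, 7.34 and 3.63 in SHR (limma, difference 1.42, standard error 0.24, adjusted p = 0.014). The largest fall of an Ensembl transcript was from 5.54, 10.6, 8.51, 5.41 and 8.97 in WKY to 1.62, 1.08, 0.721, 3.57 and 1.30 in SHR (limma, difference -1.77, standard error 0.30, adjusted p = 0.014; 0.051 without WKY replicate 3). In neither transcript did the strains overlap, as the choice required, and SHR replicate 4 was the highest SHR library in both.

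Both assembled isoforms of this tier lay near the threshold. The largest rise was from 2.17, 2.42, 1.13, 1.47 and 1.10 in WKY to 6.51, 2.77, 7.01, 9.91 and 5.94 in SHR (limma, difference 1.43, adjusted p = 0.048). This call held only without SHR replicate 2, the SHR library nearest to WKY, among the fits that left out 1 library, with adjusted p from 0.068 to 0.14 in the other 9. The largest fall was from 7.26, 2.31, 6.07, 7.99 and 4.54 in WKY to 1.32, 1.73, 1.36, 0.601 and 1.22 in SHR (limma, difference -1.50, adjusted p = 0.036). It held only without WKY replicate 2, its lowest WKY library, with adjusted p from 0.064 to 0.11 in the other 9. The SHR+Nef mean was not always near that of SHR in these lower tiers. For the assembled rise at 1 to 5 it was 1.59, against 6.43 in SHR and 1.66 in WKY. For the assembled fall at 5 to 20 it was 5.77, against 1.12 and 14.9. For the Ensembl rise at 1 to 5 it was 2.82, against 4.74 and 1.12. In the rest of the leading transcripts of these tiers it was near that of SHR.

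**Figure D4:**
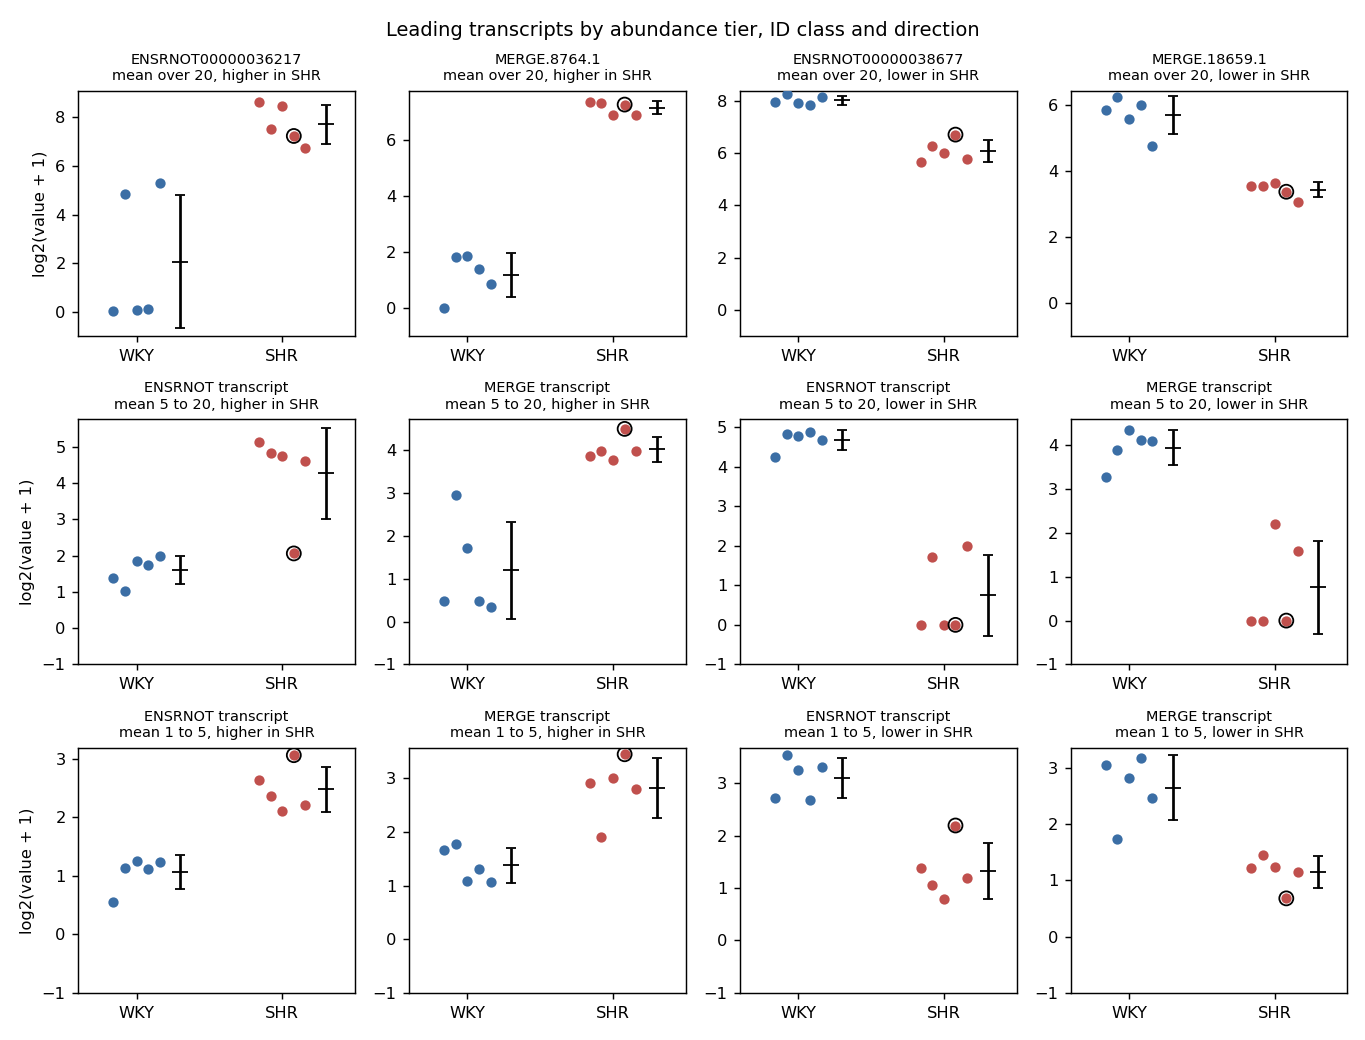
Values on the log2(value + 1) scale in the 5 WKY (blue) and 5 SHR (red) libraries for the 12 leading transcripts, replicates 1 to 5 from left to right, with the group mean and SD beside them. SHR replicate 4 is circled. It lies near the WKY values in the Ensembl transcript that rose at a mean of 5 to 20. In all 12 panels the strains do not overlap, which the choice of transcripts required.

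Each library was then set against the calls made without it. For each call of the other 9 libraries, the left-out library was scored as nearer to the mean of its own strain or of the other strain on the log2 scale. Transcripts at 1 or more in a single strain were set aside, since the limit on low values had already used the left-out library for them. Setting them aside used that library again. A call could stay because the library strayed from its strain, which lowers the shares. The limit also counted the left-out library for the transcripts that were kept, which can raise the shares. The net direction was not tested. Of the remaining calls, 87 to 127 per fit and 171 in the fit without SHR replicate 4, the left-out WKY libraries were nearer to WKY in 75.9% to 90.8% and the left-out SHR libraries other than replicate 4 were nearer to SHR in 71.7% to 81.0%. SHR replicate 4 was nearer to SHR in 120 of 171 (70.2%), with a median position of 0.894 on a scale from 0 at the mean of WKY to 1 at that of SHR, against 0.834 to 0.959 for the other SHR libraries. Its share was just under the range of the other SHR libraries and its median position within their range. With the set-aside transcripts kept, WKY libraries followed their strain in 89.3% to 95.1% of calls. The SHR libraries other than replicate 4 did so in 86.5% to 89.6%, and SHR replicate 4 in 83.6%. Neither set of shares is an independent check of the calls.

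The shares are given by abundance, with the same transcripts set aside and so with the same limits. For calls with a mean of 1 to 5, SHR replicate 4 was nearer to SHR in 40 of 69 (58.0%), and the other 9 libraries followed their own strain in 47.9% to 77.1%. At 5 to 20 it was 58 of 74 (78.4%) against 81.1% to 95.6%, and over 20 it was 22 of 27 (81.5%) against 72.0% to 100%. The lowest value at 1 to 5 belonged to SHR replicate 5, with 23 of 48. No test was made between tiers.

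Called isoforms were spread over 175 of the 9010 assembled loci with a tested isoform. At 18 loci 2 or more isoforms were called, and at 10 of these the called isoforms went in both directions. The locus with the most calls had 11 called of 22 tested isoforms, 2 higher and 9 lower in SHR, and the next had 5. Over all assembled isoforms the share called was 1.50%. The locus had 53 listed isoforms, and 12 were called without SHR replicate 4. This locus was singled out after its values were seen, and 7 of its 11 calls were at 1 or more in a single strain, so that the limit on low values fixed them in part. Of its 14 isoforms at 1 or more in a library of each strain, 4 were called, 1 higher and 3 lower. Over all such assembled isoforms the share called was 0.541%. The 9 lower isoforms summed to 59.1, 73.8, 61.0, 64.1 and 58.8 in WKY and to 2.44, 1.99, 4.37, 1.90 and 5.68 in SHR, in replicates 1 to 5. The 2 higher ones summed to 1.14, 4.08, 2.92, 2.33 and 4.26 in WKY and to 19.6, 12.3, 17.8, 35.5 and 17.7 in SHR. The strains did not overlap in either sum, with WKY high for the 9 and SHR high for the 2.

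The remaining tested isoforms of that locus, set apart for not being called, overlapped between the strains in their sum. The 11 that were not called summed to 65.2, 82.0, 87.8, 67.4 and 37.4 in WKY and to 43.9, 40.5, 57.8, 68.3 and 49.8 in SHR. All 22 tested isoforms together summed to 134.2 ± 23.3 for WKY and 75.9 ± 19.1 for SHR (SD, 5 libraries per strain). This sum leaves out the untested isoforms among the 53 listed. SHR replicate 4 was the highest SHR library at 105.7 and WKY replicate 5 the lowest WKY library at 100.5. The isoform that rose most at the locus stood at 1.03 to 4.09 in WKY and 10.9 to 31.5 in SHR (limma, difference 2.32, standard error 0.32, adjusted p = 0.0042), and the one that fell most at 9.25 to 26.2 in WKY and 0 to 1.18 in SHR (limma, difference -3.56, standard error 0.33, adjusted p = 2.5e-04). These sums hold isoforms chosen by their calls, among them the 7 seen in a single strain, and are a description, with no test.

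Calls were uneven along the locus numbers of the assembly. Loci were taken in 348 blocks of 100 consecutive numbers, of which 230 held no called isoform. The block from 18600 to 18699 held 27 called of 90 tested isoforms (30.0%), 8 higher and 19 lower in SHR, and the next by count held 6 of 51. By share the next was a block with 3 called of only 11 tested. All other blocks together had 1.32% called. The calls of that block came from 12 of its 37 loci with a tested isoform, among them MERGE.18659.1 and the locus with 11 called isoforms, and without that locus 16 of 68 were called. Isoforms at 1 or more in a library of each strain made up 73 of its 90, of which 11 were called (15.1%), 2 higher and 9 lower, against 0.465% in the other blocks. Without SHR replicate 4 the block held 28 calls in all. Whether the numbers follow the order of loci on the chromosomes was not given in the sources used here, no genes could be named, and the block was singled out after its values were seen.

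**Figure D5:**
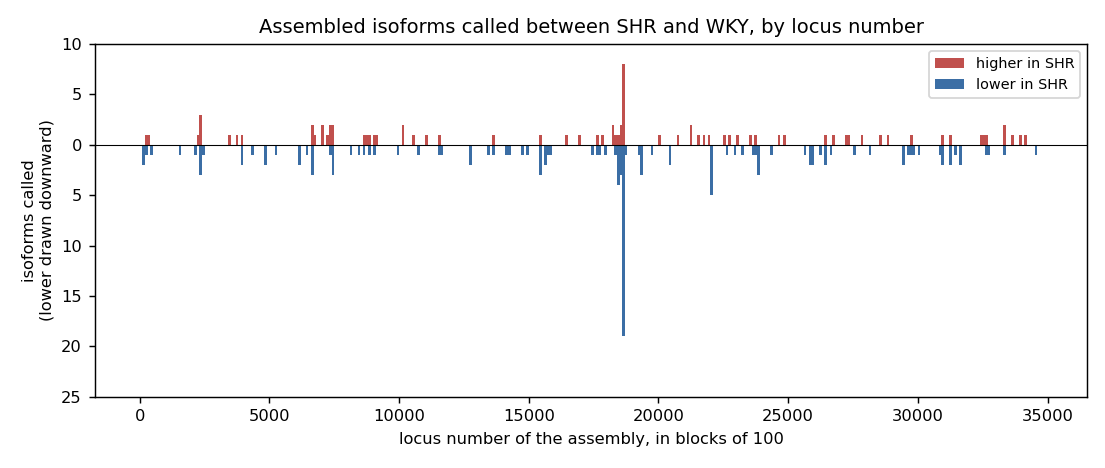
Number of assembled isoforms called between SHR and WKY in each of 348 blocks of 100 consecutive locus numbers, higher in SHR drawn upward and lower in SHR downward. The block from 18600 to 18699 holds 27 calls, 8 upward and 19 downward, and no other block holds more than 6.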

How the data were processed

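RNA sequencing of abdominal aorta was deposited as 1 table per library, 15 in all, of which the 10 of WKY and SHR were compared. What the authors deposited is a signal, meaning an abundance per transcript with decimals and none below 0. Its scale (FPKM or TPM), aligner, assembler and annotation were not given in the sources used here. Use of limma and of mm10, a mouse build, is recorded per the submitters' processing notes, whereas the IDs are rat IDs. Every transcript listed for WKY and SHR had a mean of at least 0.5 in one of these strains, so the tables were filtered, alike for both directions. Depth in reads is unknown and no counting intervals are given.

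The 2 groups were fitted on log2(value + 1) with limma 3.58.1 (R 4.3.3; moderated variances with trend and robust estimation, two-sided, 8 residual degrees of freedom). A transcript entered if at least 5 of the 10 libraries stood at 1 or more. P-values were adjusted by Benjamini-Hochberg over all tested transcripts and calls were made at 0.05. Such differences understate the change of low transcripts. The fit was tested on simulated data with normal noise, equally wide in all libraries. These held no exact zeros and no library set apart, so the simulation does not cover those features of the real values. Between any 2 libraries the log2 differences had an SD of 0.884 or more, so none was a copy. Figures were drawn with matplotlib 3.10.9.

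The groups, the tiers, the ID classes and the leaving out of SHR replicate 4 were chosen with earlier results of these data known. Named transcripts are, per direction and ID class, the call with the largest difference in the tier over 20 whose groups do not overlap and whose lower strain has a mean of at least 1. The same rule gave the 8 described without ID in the other tiers. Alternatives left out each library in turn, blocked on the replicate number, put all 3 groups in 1 model or required a log2 difference of 1. Others weighted arrays by quality, dropped the trend and robust estimation, scaled to the median or by quantiles, used a pseudocount of 0.1, or replaced the filter by none, by a minimum of 5 (the stricter filter) or by a mean of 1 or more.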

Additional observations from a re-analysis of the deposited data

Results flagged for a closer look

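In 40 sets of 5 values, each from 1 strain, the highest or lowest library was compared with the rest of its group. Chance alone would set apart about 5% of independent sets. These sets were not independent, since the number and the shares at 0 overlap and the leading transcripts were chosen for strains apart. Leaving out SHR replicate 4 was also decided beforehand, so the 5% is no test of that library. SHR replicate 4 stood far from the other SHR libraries in its summed abundance (746274), its number of transcripts at 0 (9902) and its median rank correlation with its group (0.624). It also stood far from them in the share of tested transcripts at 0 in every tier: 34.4% at a mean under 1, 17.9% at 1 to 5, 7.12% at 5 to 20 and 1.62% over 20. In the leading assembled isoform that rose at a mean of 5 to 20 it stood at 21.7, above the other SHR libraries. WKY replicate 1 stood at 0.466 in the leading Ensembl transcript that rose at 1 to 5, below the other WKY libraries.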

How the results depend on the processing

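Of 159 alternative counts, 134 stayed within 1.5 times the value reported, for the total, the tiers and the ID classes together. Against 298 calls in all, the stricter filter, under which fewer transcripts are tested, gave 99. The count was 156 with the replicate block and 82 among transcripts at 1 or more in a library of each strain. The last setting and the filter redone on 9 libraries were chosen after the data were seen. For a mean under 1 (26 calls) the counts were 16 with quantile normalization, 95 without a filter, 12 with a pseudocount of 0.1, 5 with the replicate block and 0 among transcripts present in each strain (limma; 45 with an unadjusted p under 0.05). For 1 to 5 (164) they were 8 with the stricter filter, 89 with the block and 23 among transcripts present in each strain. The tier of 5 to 20 (81) gave 47 and 42 in the last 2 settings, and the tier over 20 (27) gave 15 and 17, and 43 with array quality weights, in which SHR replicate 4 had a weight of 0.177. Ensembl calls (85) were 130 with array quality weights, 46 with the stricter filter, 132 with all 3 groups in 1 model, 39 with the block and 32 among transcripts present in each strain. Assembled calls (213) were 53, 117 and 50 with the stricter filter, the block and presence in each strain. With 1 library left out the total ran from 223 to 335, the tiers from 21 to 27, 118 to 185, 65 to 94 and 19 to 29 in rising order, Ensembl calls from 53 to 105 and assembled calls from 170 to 230. No transcript with a mean under 1 is tested under the stricter filter or with a mean of at least 1 as the filter.

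The replicate numbers did not pair the libraries: deviations of same-numbered WKY and SHR libraries correlated at -0.048 to 0.104, and 1 of 5 WKY libraries correlated best with the SHR library of its number. In 260 alternative values of the 12 leading transcripts 192 kept the call. None changed direction, which was largely fixed by choosing calls with large differences and no overlap. MERGE.8764.1, ENSRNOT00000038677 and MERGE.18659.1 kept it in all 22 each, and ENSRNOT00000036217 in 5 of 22, with adjusted p up to 0.20 (limma). The cause of the moved counts was otherwise not tested.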
